A study of Mus musculus with 4 samples.

Results

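The 10 genes described here are 8 mouse Toll-like receptor genes, Tlr1, Tlr2, Tlr3, Tlr4, Tlr6, Tlr7, Tlr9 and Tlr13, and 2 genes for the adaptor proteins behind them, Myd88 and Ticam1. They were picked by gene symbol from the 53465 genes listed in the count files, and all 10 were found. RNA-Seq was carried out on primary (1°) mouse oligodendroglial cultures (OGCs) after 3 days of differentiation (3ddiff), from 2 ctrl and 2 Zfp276cko preparations that pooled 3 mice each. The comparison asks which transcripts differ when OGCs lack Zfp276, a zinc finger transcription factor of differentiating oligodendrocytes (OLs).

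Both genotypes carried the Zfp276 fl/fl allele, with exons 2 to 5 between loxP sites, and Zfp276cko mice also carried the Sox10::Cre transgene, which drives Cre in cells that express Sox10, the oligodendroglial lineage included. An additional tdTomato reporter allele behind a floxed stop cassette in the Rosa26 locus was present in mice used for mouse cultures, and mice of both sexes had a mixed C3H x C57Bl/6J background. The labels give forebrain of mice aged 2 to 4 days as the source. Cells came from mixed glial cultures by shake-off, followed by depletion of microglia, so other glial cells can persist in such preparations. The preparations pooled several animals, and the values below are bulk levels in which fewer cells of a type and less RNA per cell cannot be told apart.

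Toll-like receptors are membrane proteins that recognize molecules of microbes or of damaged cells. Tlr2, alone or paired with Tlr1 or Tlr6, binds lipoproteins at the cell surface, and Tlr4 binds lipopolysaccharide there. Tlr3 binds double-stranded RNA, Tlr7 single-stranded RNA, Tlr9 DNA with unmethylated CpG and Tlr13 bacterial ribosomal RNA, all in endosomes. Myd88 is the adaptor of every receptor of this list except Tlr3, and Ticam1, also known as TRIF, is the adaptor of Tlr3 and of internalized Tlr4. Signals run through Irak and Traf proteins to NF-kB and to interferon regulatory factors (Irf). In the brain, most of these receptors are best known from microglia, the resident macrophages, and Tlr3 also from astrocytes.

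The 10 genes lie on 7 chromosomes of mm10 in the GENCODE annotation. Tlr1 (chr5:64924679-64933563) and Tlr6 (chr5:64952031-64960097) are neighbours on the minus strand, and Tlr3 (chr8:45395665-45411080) and Myd88 (chr9:119335934-119341411) are on the minus strand as well. Tlr2 (chr3:83836272-83841767), Tlr7 (chrX:167304929-167330558) and Ticam1 (chr17:56269319-56276786) lie on the minus strand too, and Tlr4 (chr4:66827584-66930284), Tlr9 (chr9:106222598-106226883) and Tlr13 (chrX:106143204-106160493) on the plus strand. Tlr1 and Tlr6 are close paralogs, and 256 stretches of 101 bases, the read length, occur in transcripts of both. This is 7.80% of the stretches of Tlr1 and 7.01% of those of Tlr6. Reads from there cannot be assigned to either gene, so the counts of both rest on the other stretches. The first 101 bases of the longest identical run lie within coding exon sequence of Tlr1, and are shown as an example of the sequence that the pair shares.
Tlr1, shared with Tlr6, chr5:64925665-64925765, minus strand: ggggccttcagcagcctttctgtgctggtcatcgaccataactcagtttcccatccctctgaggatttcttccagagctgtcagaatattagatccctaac
The other 8 genes shared no such stretch with another gene on the same strand. Exons of Tlr3 overlap the antisense gene Gm45542 over 381 bases, and exons of Myd88 overlap Acaa1a, on the opposite strand, over 290 bases (11.3% of the exon sequence of Myd88). The library kit keeps the strand, but the strand setting of the counting is not given in the sources used here. Gm45542 had 0 counts in each library. Acaa1a, a peroxisomal thiolase gene, had 1259 and 1505 raw counts in ctrl versus 2369 and 2322 in Zfp276cko cells. Raw counts of Myd88 were 443 and 614 in ctrl versus 877 and 863 in Zfp276cko cells. These raw counts are not scaled for the larger size of the Zfp276cko libraries. The part of Acaa1a in the counts of Myd88 was not tested.

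Promoter sequence was looked at because several members and interferon response genes were higher in both Zfp276cko libraries. RefSeq promoters of GRCm38.p6 were at hand for 8 of the 10 genes, with 250 bases before each transcription start and a pair of starts each for Tlr1 and Tlr6. Searched on both strands were the letters GAAANNGAAA, a short form of the element bound by interferon regulatory factors, TTCNNNGAA, the form bound by Stat factors, and GGGNNTTTCC, a form of the element bound by NF-kB. Of 32851 mouse promoters of this length, 2.98% hold the first, 7.02% the second and 1.41% the third. The promoters of Myd88 and Tlr3 and 1 of the pair of promoters of Tlr6 and of Tlr1 held at least 1 match, and the other promoter of Tlr6 and of Tlr1 held 0. These are shown with capitals for the matched letters, 5′ to 3′ along the gene, all on the minus strand.
Myd88, chr9:119340042-119340071: gcggagcTTCTCGGAAAGCGAAAgaaggag
Tlr6, chr5:64959260-64959289: ctattctTTTCTCTTTCACTTTCtgtttga
Tlr3, chr8:45410572-45410601: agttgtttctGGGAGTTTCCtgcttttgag
Tlr1, chr5:64932908-64932937: agtagctagcTTCATCGAAgcagagatgca
In Myd88, the Stat form starts 46 bases and the Irf form 40 bases before the transcription start, and the matches overlap. In Tlr6, 2 overlapping matches of the Irf form lie on the strand opposite to the gene. Tlr3 had 1 match of the NF-kB form and 0 of the Irf and Stat forms, and this promoter of Tlr1 had 1 match of the Stat form only. The windows of Tlr3 and Tlr1 overlap annotated exons of the same genes over 178 and 211 bases. No match of any form was found in the promoters of Tlr2, Tlr9, Tlr13 and Ticam1, which says no more than that these letters are not in these windows.

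Libraries held 21311469 and 21068322 counted reads in ctrl versus 25265366 and 26599809 in Zfp276cko cells. Zfp276 had 1648 and 2230 normalized counts in ctrl versus 490 and 503 in Zfp276cko cells, which is 25.6% of the ctrl mean (log2 fold change -1.97 ± 0.18 SE, adjusted p = 0.0962 by edgeR and 1.17e-14 by DESeq2). A normalized count is the count scaled to the same effective library size in all libraries. The ctrl libraries were much less alike than the Zfp276cko libraries. A gap of 2-fold or more separated the ctrl libraries at 12.6% of 14324 genes and the Zfp276cko libraries at 0.307%. Markers of fibroblasts and vessels summed to 5571 normalized counts in ctrl replicate 1 and to 282 to 405 in the other libraries, and neuronal markers to 300.4 in ctrl replicate 1 and to 2064 to 4083 in the others. The oligodendroglial markers Sox10 (17805 to 20744 normalized counts) and Mbp (87161 to 177958) were present in all 4 libraries. Single markers of other cells came near the level of Sox10. The astrocyte marker Gfap was at 17641 in ctrl replicate 1, and the microglia and macrophage marker Fcrls at 18324 in ctrl replicate 2.

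Compared per length, Tlr2 was the most abundant member in both genotypes and Tlr3 took the lowest place in ctrl and the seventh in Zfp276cko cells. In ctrl cells, the levels in normalized counts per kb of exon (mean ± SD, n = 2) were 760 ± 312 for Tlr2, 342 ± 194 for Tlr7, 236 ± 45.3 for Myd88, 218 ± 133 for Tlr13 and 172 ± 6.60 for Ticam1. They were followed by 158 ± 37.7 for Tlr1, 69.8 ± 32.5 for Tlr4, 44.3 ± 0.37 for Tlr6, 40.6 ± 29.96 for Tlr9 and 27.5 ± 8.89 for Tlr3. The libraries' ranges overlapped for 6 of the 9 pairs of neighbours in this order, and were apart between Tlr2 and Tlr7, between Tlr1 and Tlr4 and between Tlr4 and Tlr6. In Zfp276cko cells, the levels per kb were 666 ± 16.5 for Tlr2, 438 ± 33.9 for Tlr7, 298 ± 14.3 for Myd88, 267 ± 4.17 for Tlr1 and 262 ± 11.8 for Tlr13. The lower places were taken by Ticam1 with 188 ± 16.02, Tlr3 with 114 ± 13.4, Tlr9 with 96.8 ± 4.44, Tlr4 with 66.6 ± 4.40 and Tlr6 with 42.3 ± 0.46 normalized counts per kb. Here 8 of 9 pairs of neighbours were apart, and Tlr1 and Tlr13 overlapped.

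All 10 members passed the filter on low counts and were tested. Tlr3, Tlr9, Tlr1, Myd88 and Ticam1 exceeded both ctrl libraries in both Zfp276cko libraries, Tlr6 was lower in both by a small margin, and Tlr2, Tlr4, Tlr7 and Tlr13 lay between the ctrl libraries. Over all 15766 tested genes, 26.8% were above both and 23.7% below both ctrl libraries. No member passed the quasi-likelihood test of edgeR at an adjusted p of 0.05, an absolute log2 fold change of 0.6 and a mean normalized count of 20, and neither did any other gene, in either direction (0% called). The smallest adjusted p of any gene was 0.0725, while the unadjusted p was 0.05 or less for 2464 genes. DESeq2, the tool used in the study, called 1 member higher, Tlr3, and 0 lower, at a background of 3.02% of 14879 genes called higher and 2.27% called lower. With an unadjusted p and the same limits on fold change and mean, Tlr3 and Tlr1 passed, against 5.11% of all genes in this direction and 3.02% in the other. The median log2 fold change over the members was 0.30, against -0.0013 over all tested genes. Of the members, 7 were higher in ctrl replicate 1 than in ctrl replicate 2, and the median moved to 0.52 without ctrl replicate 1 and to 0.037 without ctrl replicate 2.

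**Figure D1:**
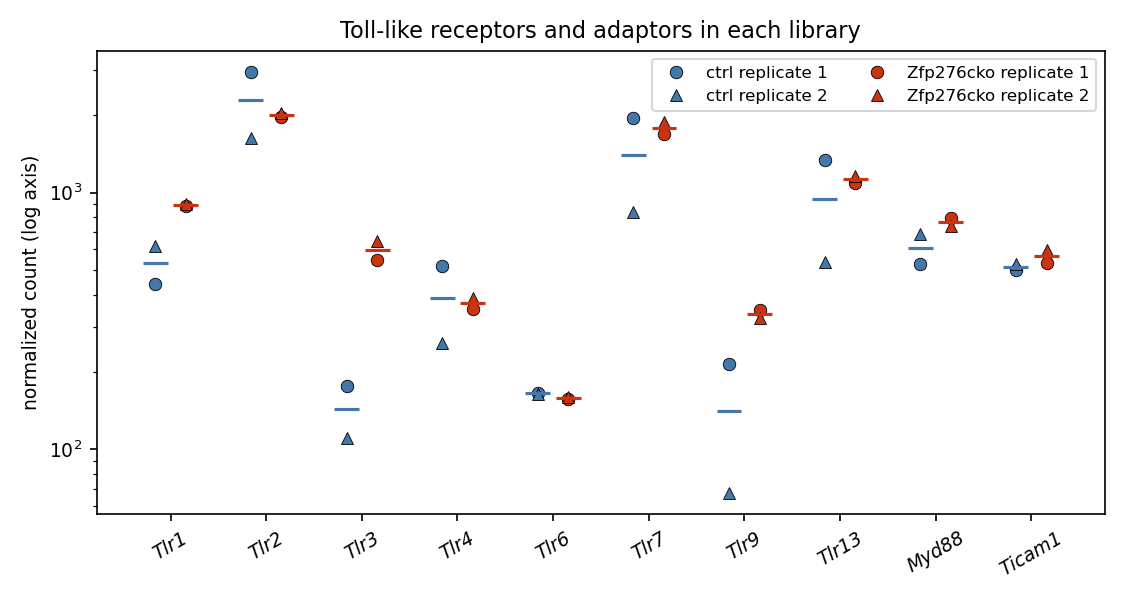
Normalized counts of the 10 genes in each library (log axis), with circles for replicate 1, triangles for replicate 2 and short lines for the mean of each genotype (n = 2). The Zfp276cko libraries lie close together for every gene, whereas the ctrl libraries are wide apart for Tlr7, Tlr9 and Tlr13, and for Tlr3 the Zfp276cko libraries (547 and 645) lie well above ctrl (176 and 110).

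Among the endosomal receptors, Tlr3 differed most. It had 176 and 110 normalized counts in ctrl versus 547 and 645 in Zfp276cko cells. Both Zfp276cko values were at least 3.11 times the higher ctrl value, so the genotypes were clearly apart. The means were 143 ± 46.3 and 596 ± 69.8 (SD, n = 2), a 4.17-fold difference. The log2 fold change was 2.06 ± 0.29 (SE), with an adjusted p of 0.123 by edgeR and of 1.78e-07 by DESeq2. It came to 2.43 without ctrl replicate 1 and to 1.75 without ctrl replicate 2, so the difference was present against either ctrl library.

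Tlr9 had 215 and 67.5 normalized counts in ctrl versus 347 and 326 in Zfp276cko cells. The genotypes did not overlap, but the log2 ratio between the ctrl libraries (replicate 2 over 1) was -1.66. Its log2 fold change was 1.25 ± 0.58 (SE), with an adjusted p of 0.399 by edgeR and 0.254 by DESeq2. The value rested on the choice of ctrl library, with 2.32 without ctrl replicate 1 and 0.63 without ctrl replicate 2.

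Tlr7 and Tlr13, the RNA sensors with the highest levels of the endosomal group, showed no separation of the genotypes. Tlr7 had 1954 and 836 normalized counts in ctrl versus 1689 and 1885 in Zfp276cko cells, and Tlr13 had 1344 and 537 in ctrl versus 1090 and 1162 in Zfp276cko cells. For both genes ctrl replicate 1 was the highest and ctrl replicate 2 the lowest of all libraries. The log2 fold changes were 0.36 ± 0.42 for Tlr7 and 0.26 ± 0.46 for Tlr13, with adjusted p of 0.734 and 0.825. Their direction changed with the ctrl library used, from 1.10 without ctrl replicate 1 to -0.14 without ctrl replicate 2 for Tlr7 and from 1.07 to -0.27 for Tlr13.

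Among the surface receptors, only Tlr1 had both Zfp276cko libraries above both ctrl libraries, and neither tool called it. Tlr1, which pairs with Tlr2 to bind triacylated lipoproteins, had 440.5 and 619 normalized counts in ctrl versus 885 and 905 in Zfp276cko cells. Both Zfp276cko values were above both ctrl values, and the means of 530 ± 126 and 895 ± 14.0 (SD, n = 2) differed 1.69-fold. The log2 fold change was 0.76 ± 0.20 (SE), with an adjusted p of 0.221 by edgeR and 0.0581 by DESeq2. Without ctrl replicate 1 it was 0.53 and without ctrl replicate 2 it was 1.01. In the same fits Tlr4 was at 0.51 and -0.49, Tlr2 at 0.31 and -0.57 and Tlr6 at -0.06 and -0.09. The distance of Tlr1 from the other surface receptors thus depended on the ctrl library, and it was not tested.

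Tlr6, the other partner of Tlr2 and the paralog of Tlr1, was the steadiest member. It had 166 and 164 normalized counts in ctrl versus 157 and 159 in Zfp276cko cells. Although the Zfp276cko values were below both ctrl values, the log2 fold change was -0.07 ± 0.19 (SE; adjusted p = 0.895). Tlr2 itself had 2954 and 1625 normalized counts in ctrl versus 1973 and 2044 in Zfp276cko cells, with a log2 fold change of -0.19 ± 0.31 (adjusted p = 0.809). Its Zfp276cko values lay between those of ctrl, and the value became 0.31 without ctrl replicate 1 and -0.57 without ctrl replicate 2.

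Tlr4 had 515 and 260 normalized counts in ctrl versus 353 and 387 in Zfp276cko cells. The Zfp276cko libraries again lay between the ctrl libraries. The log2 fold change was -0.07 ± 0.36 (SE; adjusted p = 0.951), and came to 0.51 without ctrl replicate 1 and to -0.49 without ctrl replicate 2.

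The adaptors showed small differences. Myd88 had 526 and 691 normalized counts in ctrl versus 794 and 741 in Zfp276cko cells, and Ticam1 had 499.8 and 528 in ctrl versus 529 and 597 in Zfp276cko cells. Both genes were above both ctrl libraries, Ticam1 by a factor of 1.003 at its nearest values. The log2 fold changes were 0.33 ± 0.18 (SE; adjusted p = 0.445) for Myd88 and 0.13 ± 0.14 (adjusted p = 0.689) for Ticam1. They stayed above 0 without either ctrl library.

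**Figure D2:**
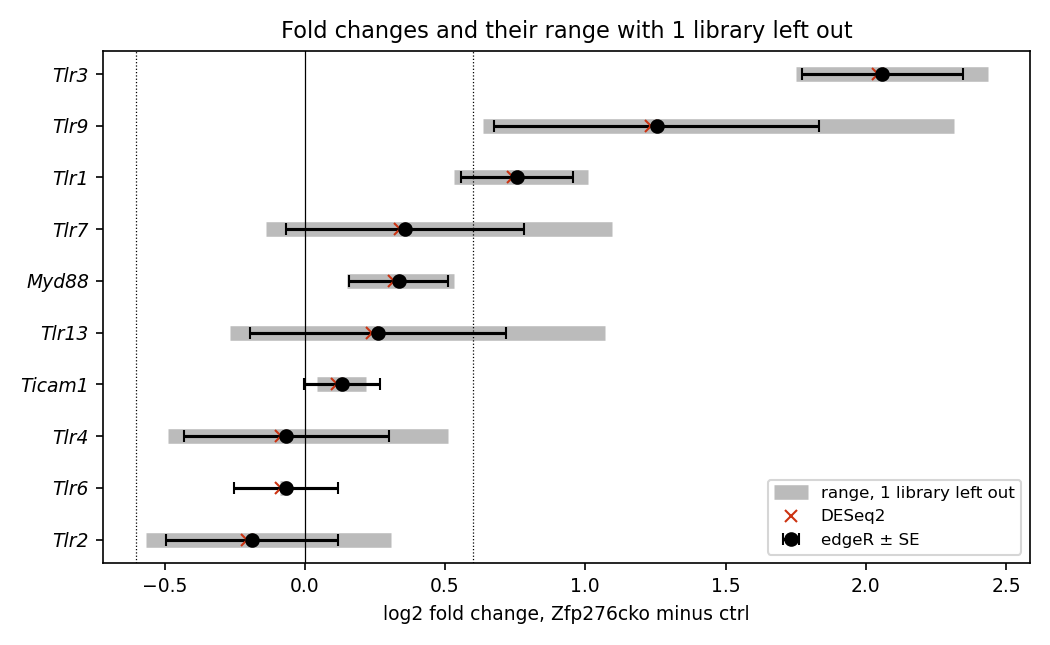
Log2 fold change of each gene (Zfp276cko minus ctrl), with black points for edgeR, bars for ± 1 SE, red crosses for DESeq2, grey bands for the range when 1 of the 4 libraries was left out, and dotted lines at ± 0.6. The band of Tlr3 runs from 1.75 to 2.43, that of Tlr9 from 0.63 to 2.32, and those of Tlr2, Tlr4, Tlr7 and Tlr13 span 0.

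The remaining 4 mouse receptors of the family were at low levels or variable. Tlr8, an RNA sensor next to Tlr7 on the X chromosome, had 757 and 132 normalized counts in ctrl versus 398 and 385 in Zfp276cko cells. Tlr5, the flagellin receptor, had 62.9 and 5.63 in ctrl versus 29.0 and 23.2 in Zfp276cko cells. Both were highest in ctrl replicate 1 and lowest in ctrl replicate 2, with log2 fold changes of -0.18 ± 0.82 (adjusted p = 0.939) and -0.39 ± 1.06 (adjusted p = 0.893). Without ctrl replicate 1 these were 1.57 and 2.19, and without ctrl replicate 2 they were -0.96 and -1.28. Tlr11 and Tlr12 had at most 1 and 5 counts in a library and were not tested.

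Markers of microglia and macrophages were present in all libraries, and most of them were higher in ctrl replicate 1 than in ctrl replicate 2. Their sum was 105531 and 66965 normalized counts in ctrl versus 82396 and 83912 in Zfp276cko cells. Of 19 tested entries, 14 were higher in ctrl replicate 1 than in ctrl replicate 2, 11 lay between the ctrl libraries in Zfp276cko cells, 6 were above both ctrl libraries and 1 was below both. Some went the other way between the ctrl libraries, such as Aif1 with 1248 and 3204 normalized counts. Higher levels in ctrl replicate 1 were also found for 18 of 20 interferon response genes and 9 of 9 markers of vessels and fibroblasts. The counts were 7 of 18 for NF-kB target genes, 4 of 9 for astrocyte, 3 of 10 for oligodendroglial and 0 of 7 for neuronal markers. The share over all tested genes was not determined. The median log2 fold change of the microglia and macrophage list was 0.08, but it moved to 0.61 without ctrl replicate 1 and to -0.11 without ctrl replicate 2. DESeq2 called Ptprc and Cd68 higher and Fcrls lower, with edgeR log2 fold changes of 0.76, 0.99 and -1.22. The markers P2ry12 (150.8 and 19.1 in ctrl, 55.2 and 84.2 in Zfp276cko cells) and Tmem119 (418 and 293 in ctrl, 392 and 391 in Zfp276cko cells) had the lowest mean levels among the tested entries of this list. Gpr34 was at 0 in all libraries, and the reason was not tested. Markers of lymphocytes and dendritic cells summed to between 9.002 and 17.2 normalized counts, with Ms4a1 and Siglech at 0.

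Scaling by these markers, which was decided on with the data in view, left the difference of Tlr3 as large. Per 1000 normalized counts of the microglia and macrophage list, Tlr3 had 1.67 and 1.65 in ctrl versus 6.63 and 7.69 in Zfp276cko cells. The ctrl libraries then nearly coincided, but this match rests on the markers summed. Single markers of the list had log2 ratios between the ctrl libraries (replicate 2 over 1) of -2.95 to 1.36. Tlr9 had 2.04 and 1.01 in ctrl versus 4.22 and 3.88 in Zfp276cko cells on this scale. Tlr7 had 18.5 and 12.5 in ctrl versus 20.5 and 22.5 in Zfp276cko cells, and Tlr13 had 12.7 and 8.02 in ctrl versus 13.2 and 13.9 in Zfp276cko cells. Both were thus above both ctrl libraries on this scale, unlike on the scale of normalized counts. The sum used for scaling includes Fcrls, with 12725 and 18324 normalized counts in ctrl versus 6568 and 6761 in Zfp276cko cells. The lower Fcrls in Zfp276cko cells makes that sum smaller there and so raises the scaled values of all members. Tlr13 was apart by little, with 12.7 and 13.2 as its nearest values, so its separation on this scale is not secure. Whether Tlr7 and Tlr13 stay apart with a sum that leaves out Fcrls was not tested. Tlr1 had 4.17 and 9.24 in ctrl versus 10.7 and 10.8 in Zfp276cko cells, so that its ctrl libraries were further apart than before. Myd88, Ticam1 and Tlr6 overlapped between the genotypes on this scale. Tlr2 had 28.0 and 24.3 in ctrl versus 24.0 and 24.4 in Zfp276cko cells, and Tlr4 had 4.88 and 3.88 in ctrl versus 4.28 and 4.62 in Zfp276cko cells. Neither separated the genotypes. The part of microglial content in the values of the members was not tested further.

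**Figure D3:**
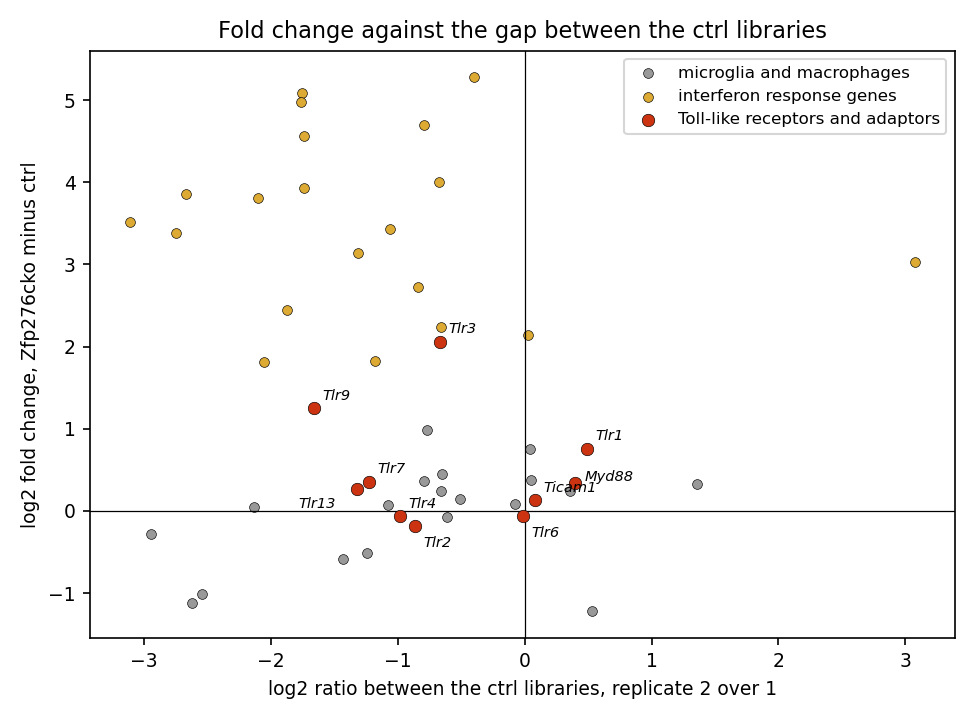
Log2 fold change (Zfp276cko minus ctrl) against the log2 ratio between the ctrl libraries (replicate 2 over 1), with 1 point per tested gene for the 10 members (red, named), the microglia and macrophage markers (grey) and the interferon response genes (yellow). Tlr7, Tlr13, Tlr4, Tlr2 and Tlr9 lie on the left together with Tlr3, 14 of 19 microglia and macrophage markers and 18 of 20 interferon response genes, and Tlr3 and all 20 interferon response genes lie above 1.8.

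Co-receptors and chaperones of the receptors did not move as one group. Of 15 tested genes, 5 were above both and 5 below both ctrl libraries, 0 were called by edgeR and 1, Lgmn, was called higher by DESeq2. For all lists, such counts stand beside 26.8% of all tested genes above both and 23.7% below both ctrl libraries. Lgmn, an endosomal protease that trims endosomal receptors, had a log2 fold change of 0.70 ± 0.11 (SE; adjusted p by edgeR = 0.139). Unc93b1, the chaperone that carries endosomal receptors to endosomes, had 3275 and 2148 normalized counts in ctrl versus 3921 and 3499 in Zfp276cko cells (log2 fold change 0.45 ± 0.23, adjusted p = 0.435). Slc15a4, Hsp90b1, Cnpy3 and Cd36 were below both ctrl libraries, with log2 fold changes of -0.26, -0.23, -0.24 and -0.25. Cd14, the lipopolysaccharide co-receptor of Tlr4, had 3603 and 1383 normalized counts in ctrl versus 1442 and 1448 in Zfp276cko cells. Ly96, its partner at Tlr4, had 107 and 60.8 in ctrl versus 107 and 97.1 in Zfp276cko cells. Cd180, a receptor-like relative of Tlr4, had 763 and 2095 in ctrl versus 2874 and 3126 in Zfp276cko cells, and its partner Ly86 had 987 and 530 in ctrl versus 836 and 829.9 in Zfp276cko cells. None of these 4 genes passed the test of either tool. Leaving out ctrl replicate 1 or else ctrl replicate 2 gave log2 fold changes of 0.06 or -1.33 for Cd14, 0.74 or -0.08 for Ly96 and 0.65 or -0.26 for Ly86, while Cd180 stayed above 0 (0.52 or 1.96).

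Among bridging adaptors and negative regulators, 6 of 13 tested genes were above both ctrl libraries and 1 was below both. DESeq2 called 2 of them higher and 0 lower. These were Tnfaip3, a deubiquitinase that dampens NF-kB signalling, with a log2 fold change of 1.07 ± 0.10 (SE), and Socs1, an inhibitor of cytokine signalling, with 2.21 ± 0.29. Their adjusted p by edgeR was 0.0962 and 0.121. Trim30a had the largest log2 fold change of this list, 2.34 ± 0.82 (SE), but neither tool called it. It had 906 and 163 normalized counts in ctrl versus 2584 and 2808 in Zfp276cko cells, and came to 4.05 without ctrl replicate 1 and to 1.56 without ctrl replicate 2. Ticam2, the adaptor that links Tlr4 to Ticam1, had 172 and 138 normalized counts in ctrl versus 265 and 295 in Zfp276cko cells (log2 fold change 0.85 ± 0.21, adjusted p = 0.203). Tirap, which links Tlr2 and Tlr4 to Myd88, had 537 and 433 in ctrl versus 471 and 513 in Zfp276cko cells and overlapped between the genotypes. Sarm1 and Irak3 overlapped as well, with log2 fold changes of -0.21 and 0.41. The direction changed with the ctrl library for Tirap (0.18 without ctrl replicate 1, -0.14 without ctrl replicate 2), Sarm1 (-0.58 and 0.28) and Irak3 (1.17 and -0.10). Tollip was below both ctrl libraries at -0.24, and Sigirr, at 2.72 to 5.94 normalized counts, was not tested.

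The kinases and ubiquitin ligases of the pathway differed little. Of 24 tested genes, 10 were above both and 3 below both ctrl libraries, and neither tool called any of them at these limits, although Ikbke passed with an unadjusted p. Their log2 fold changes ran from -0.48 to 0.79, with a median of 0.10. Ikbke and Tbk1, the kinases of Irf3 and Irf7, had log2 fold changes of 0.79 ± 0.27 (adjusted p = 0.297) and 0.29 ± 0.09 (adjusted p = 0.279). Irak1, Irak2 and Irak4, the kinases that bind Myd88, were at -0.13, 0.27 and 0.26, and Traf3, Traf6 and Map3k7 were at 0.06, 0.03 and -0.23. The direction of Irak1 (0.25 without ctrl replicate 1, -0.45 without ctrl replicate 2) and of Traf6 (0.13 and -0.07) depended on the ctrl library, and Irak2 ran from 0.45 to 0.10.

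Transcription factors at the end of the pathway fell into a group with little difference and a few genes with a large one. Of 13 tested genes, 6 were above both and 2 below both ctrl libraries, and the median log2 fold change was 0.03, moving to 0.17 without ctrl replicate 1 and to 0.02 without ctrl replicate 2. DESeq2 called Irf1 and Atf3 higher, with log2 fold changes of 1.00 ± 0.21 and 1.40 ± 0.16 and adjusted p by edgeR of 0.178 and 0.113. Nfkb1, Rela, Irf3 and Irf5 had log2 fold changes of -0.01, 0.03, 0.02 and -0.09 and overlapped between the genotypes, and the sign of Nfkb1 and Irf5 changed with the ctrl library (0.06 and -0.21 without ctrl replicate 1, -0.09 and 0.02 without ctrl replicate 2). Irf7, itself an interferon response gene, had 782 and 116 normalized counts in ctrl versus 4756 and 4617 in Zfp276cko cells (log2 fold change 3.39 ± 0.93, adjusted p = 0.231 by edgeR and 0.066 by DESeq2, and 5.34 and 2.57 without ctrl replicate 1 and 2).

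Of 18 tested NF-kB target genes, 13 were above and 0 below both ctrl libraries, and the median log2 fold change was 0.74. Over all tested genes, 26.8% were above both and 23.7% below both. This list was chosen with earlier results of these data known, so the counts are no independent test. DESeq2 called 4 of these NF-kB target genes higher and 0 lower. They were the chemokines Ccl2 (2.25 ± 0.38) and Cxcl2 (1.19 ± 0.16), and Tnfaip3 and Tnfaip2 (1.07 ± 0.10 and 0.63 ± 0.08, log2 fold change ± SE). Tnfaip3 is also counted among the bridging adaptors and negative regulators above. The cytokine gene Tnf had 275 and 2099 normalized counts in ctrl versus 2384 and 2496 in Zfp276cko cells. Il1b was instead high in ctrl replicate 1 alone, with 896 and 59.6 in ctrl versus 92.3 and 113 in Zfp276cko cells. Their log2 fold changes were 1.04 ± 0.93 (adjusted p = 0.644) and -2.22 ± 1.26 (adjusted p = 0.472). Without ctrl replicate 1 they were 0.22 for Tnf and 0.78 for Il1b, and without ctrl replicate 2 they were 3.14 and -3.14. Il6 had 15.4 and 10.1 normalized counts in ctrl versus 38.0 and 40.4 in Zfp276cko cells, and Nfkbia had 1249 and 1629 in ctrl versus 2164 and 2043 in Zfp276cko cells, so both were apart between the genotypes without passing either test.

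The interferon response genes had the largest median log2 fold change of the lists compared here, except without ctrl replicate 2, where the neuronal markers were at 3.19. All 20 were tested and all 20 were above both ctrl libraries, and their median log2 fold change was 3.47. The list was chosen with earlier results of these data known, so these values describe the genes picked and are no independent test. DESeq2 called 15 of them higher, and 0 were called by edgeR, where 18 passed with an unadjusted p. Rsad2, an antiviral enzyme, had 258 and 195 normalized counts in ctrl versus 8616 and 8912 in Zfp276cko cells, and Isg15, a ubiquitin-like modifier, had 260.0 and 149.7 in ctrl versus 5447 and 5134 in Zfp276cko cells. Cxcl10 and Ccl5, the chemokines, had log2 fold changes of 3.03 ± 0.97 and 1.81 ± 0.70 (adjusted p = 0.28 and 0.336). Ifnb1, the interferon beta gene, had 1 and 0 counts in ctrl versus 28 and 26 in Zfp276cko cells, so that ctrl was at the floor of 3 counts per library. With Ifnb1 at the bound set by that floor, the median of the list was 3.41. With Ifnb1 at its bound it came to 4.22 without ctrl replicate 1 and to 2.86 without ctrl replicate 2, and as fitted to 4.72 and 3.01. The log2 fold change of Tlr3, at 2.06, lay within the range of this list (1.81 to 5.28), and those of the other members lay below it. This depended on the ctrl library for Tlr9. Without ctrl replicate 1, Tlr9 (2.32) and Tlr3 (2.43) were above the lowest gene of the list, Mx2 (2.12). Without ctrl replicate 2, Tlr3 (1.75) was above the lowest, Ccl5 (1.11), and Tlr9 (0.63) below it.

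**Figure D4:**
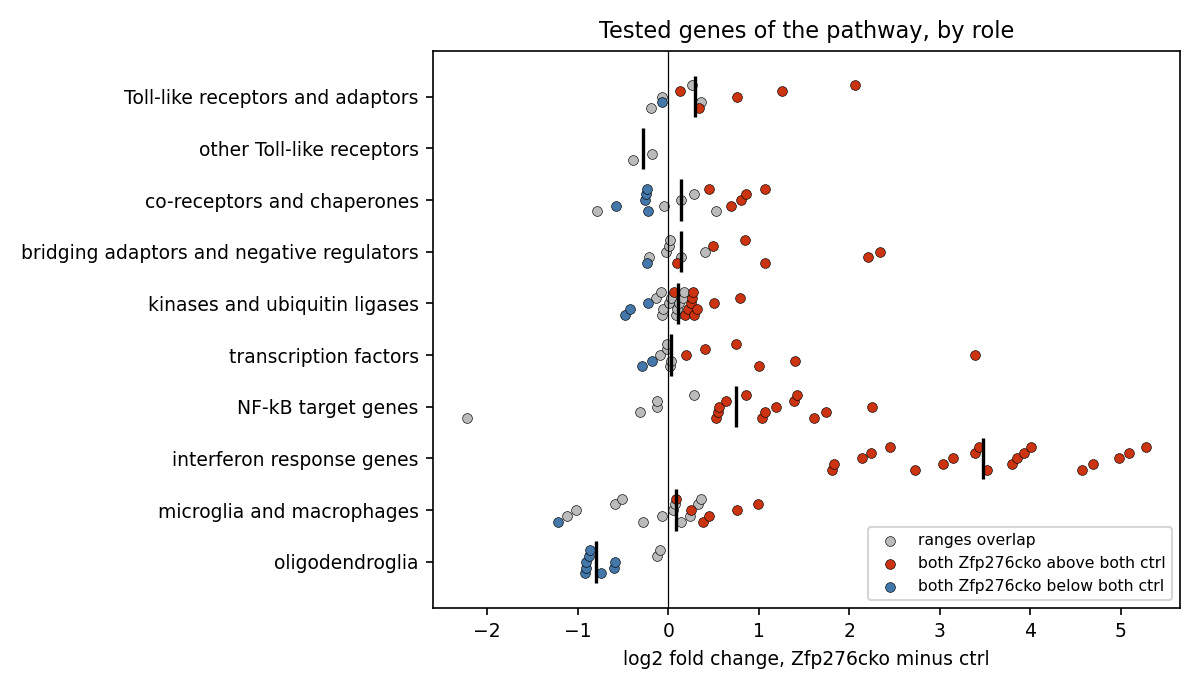
Log2 fold change (Zfp276cko minus ctrl) of each tested gene in lists ordered by role, with a vertical line at each median and colours for both Zfp276cko libraries above (red) or below (blue) both ctrl libraries. Of the interferon response genes 20 of 20 are red, of the NF-kB target genes 13 of 18 and of the receptors and adaptors 5 of 10, while 8 of 10 oligodendroglial markers are blue. Over all tested genes, 26.8% were above both and 23.7% below both ctrl libraries. The lists were chosen with earlier results of these data known, so these counts are no independent test.

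The genes most like each member in pattern were ranked by the distance of centred log2 normalized counts over the 4 libraries among 14345 genes. For Tlr3 they were Gimap8, Rgs1 and Ankrd66, at distances of 0.131 to 0.142. Rgs1, a regulator of G protein signalling, had 142 and 87.8 normalized counts in ctrl versus 473 and 489.7 in Zfp276cko cells. For Tlr9 they were the major histocompatibility complex genes H2-D1 and H2-K2, whose reads can be shared within their gene family, and Ccdc125. H2-D1 had 4495 and 1306 normalized counts in ctrl versus 6381 and 6123 in Zfp276cko cells. For Tlr1 they were Gpcpd1, Cyth4 and Prx, for Tlr7 Ociad2, Gpr137b-ps and Gm7160, and for Tlr13 Samsn1, Klk1b22 and Gm43890. For Tlr2 they were Slc30a7, Bcat1 and Epdr1, for Tlr4 Spata6, Plppr5 and Dusp6, and for Tlr6 Ric8b, Mon1b and Ube2h. Spin2c, Ighmbp2 and Gm43843 were nearest to Myd88, and Cdkn2aip, Dennd6a and A830005F24Rik to Ticam1. With 4 libraries, such rankings describe these samples and share the gap between the ctrl libraries.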

How the data were processed

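RNA-Seq libraries (TruSeq stranded mRNA, 101 bp single-end reads) were made from 2 ctrl and 2 Zfp276cko preparations. The authors mapped reads with STAR 2.5.4a to mm10 and deposited raw counts, listed by gene symbol and not normalized. The paper names HTSeq for counting and the submitters' processing notes name featureCounts 1.5.1, and which one made these counts was not settled. Labels give biological replicates, and shared replicate numbers were not taken as pairs (correlation of their deviations 0.0064 over 14324 genes).

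Here, edgeR 4.0.16 (R 4.3.3) with filterByExpr and TMM left 15766 genes and 99.9% of the counts, and its quasi-likelihood test with Benjamini-Hochberg adjustment over all of them was the main test. SE is the log2 fold change divided by the root of the F statistic. As in the study, genes were called at an adjusted p up to 0.05 with an absolute log2 fold change from 0.6 and a mean normalized count from 20. The code was tested on simulated data in which all 4 libraries had the same spread. The ctrl and Zfp276cko libraries differ in spread, so this checked the code and not the tests for this design. Lengths are exon unions of GENCODE M21. DESeq2 1.42.0, a likelihood ratio test, other filters and scalings and leaving out each library were alternatives. The members and lists were chosen with earlier results of these data known. Genes named are the members, all other Toll-like receptors, pathway genes picked by role, markers, list genes passing the main test (0) and the 3 nearest genes per member. List genes named for a call by DESeq2, and Acaa1a and Trim30a, were added with their values in view. Total counted reads of 21068322 to 26599809 limit the precision of low genes, and standard errors rest on 2 preparations per genotype.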

Additional observations from a re-analysis of the deposited data

How the results depend on the processing

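With 0 genes and 0 members called by the quasi-likelihood test of edgeR, the counts of calls depended on the test. DESeq2 called 449 genes higher and 338 lower, the likelihood ratio test of edgeR 428 and 268, and an unadjusted p 806 and 476, while no filter on low counts gave 8 higher genes. These settings called 1 member (Tlr3), 1 member (Tlr3), 2 members (Tlr3 and Tlr1) and 0 members higher, and 0 lower. Leaving out 1 library gave 0 to 1799 genes higher, 0 to 1253 lower and 0 to 4 members higher, with calls only where a ctrl library was left out. The remaining ctrl library is then taken to vary like the closely matching Zfp276cko libraries, so these calls rest on the spread of 1 genotype. Without ctrl replicate 1 (1693 genes higher, 951 lower) the members were Tlr3, Tlr7, Tlr9 and Tlr13, and without ctrl replicate 2 (1799 and 1253) they were Tlr1, Tlr3 and Tlr9. Directions of the log2 fold change reversed for Tlr2 (-0.57 to 0.31 over the fits without 1 library), Tlr4 (-0.49 to 0.51), Tlr7 (-0.14 to 1.10) and Tlr13 (-0.27 to 1.07), and for Tlr4 also with the replicate number as a block (0.012) and per microglia and macrophage marker counts (0.022). The other 6 members kept their direction under each alternative run. The fit with the replicate block called 0 genes and 0 members, as did the fit without it. Libraries with the same replicate number showed no shared deviation. As the Zfp276cko libraries hardly differed, this cannot tell whether preparations were made in pairs. The size factors of DESeq2, at least 10 counts in every library and dropping the limits on fold change and mean left all counts at 0. Depth limits Tlr5, Tlr11, Tlr12, Sigirr and Ifnb1 most.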

Other observations

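Among the other cell types of the cultures, 8 of 10 oligodendroglial markers were below both ctrl libraries in Zfp276cko cells, and the median log2 fold change was -0.80. DESeq2 called 7 of them lower, while edgeR called 0. The myelin gene Mog had a log2 fold change of -0.92 ± 0.10 (SE), whereas Sox10 was at -0.09 ± 0.13 and Pdgfra, a marker of precursors, at -0.13 ± 0.24. Of 9 tested astrocyte markers, 2 were above both and 1 below both ctrl libraries, and neither tool called any. Gfap had 17641 and 8463 normalized counts in ctrl versus 12993 and 12248 in Zfp276cko cells, and Aldh1l1 had 316 and 617 in ctrl versus 918 and 796 in Zfp276cko cells. Among the markers of fibroblasts, Col1a1 had 2522 and 63.0 normalized counts in ctrl versus 74.2 and 49.0 in Zfp276cko cells. Among those of neurons, Gad1 had 78.4 and 2002 in ctrl versus 920.2 and 1003 in Zfp276cko cells. The part of these differences between cultures in the values of the Toll-like receptors was not tested.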
